A study of Homo sapiens with 15 samples.

Results

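The collagen genes are the 44 genes of the count table whose Entrez number maps to a collagen alpha chain symbol, out of 28395 genes, 27745 of which carried a symbol. They were measured by RNA-seq in BEAS-2B cells, an immortalised and widely used human airway line from the bronchial epithelium, as read counts per gene in 15 samples. The study followed the response of these cells to nanoplastics of polyethylene terephthalate (PET-NPLs), the polymer of drink bottles. Exposed cultures were kept in 50 µg/mL of PET-NPLs for 24 h (2 samples), 15 weeks (2 samples) or 30 weeks (4 samples), and passage-matched cells without particles gave 2, 2 and 3 control samples. All samples came from the same line in the same medium with 10% serum, and the labels name no allele or transgene that was introduced. The labels place the samples of 24 h and 15 weeks in batch 1 and those of 30 weeks in batch 2, so each comparison of exposed with control cells lies within 1 batch, while the step from 15 to 30 weeks and the batch cannot be told apart. No label says that the samples of a condition came from cultures exposed separately, so p-values measure the spread between these samples, which may be technical.

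Collagens are triple helices of 3 alpha chains, each chain encoded by its own gene. Fibrillar collagens build the fibres of connective tissue, type IV collagens form the sheet of the basement membrane under an epithelium, type VI forms beaded filaments, and FACIT collagens (fibril-associated collagens with interrupted triple helices) sit on the surface of fibrils. Multiplexins are basement membrane zone collagens that carry sugar chains, network collagens form lattices, type VII anchors the basement membrane to the tissue below, and transmembrane collagens stay in the cell surface. Airway epithelial cells are known for making basement membrane chains, while type I collagen is typical of mesenchymal cells. The list held 11 fibrillar genes, 6 basement membrane genes, 3 network genes, 1 anchoring fibril gene, 5 beaded filament genes, 10 FACIT genes, 2 multiplexins, 4 transmembrane collagens and 2 others.

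The libraries held 23143202 to 31459990 counts (median 28605451), of which 21324 to 53742 per library were on collagen genes. Levels are given as CPM (counts scaled to a common library size, with TMM factors), and 1 CPM stood for 23.3 to 33.9 counts. Levels are compared between genes only as RPKM, the CPM per kilobase of the gene's reference transcript. A gene passed the filter on low counts if it was high enough in at least 2 samples of any kind, 2 being the size of the smallest condition. It was called changed if its adjusted p (Benjamini-Hochberg over all 16740 genes tested) in edgeR's quasi-likelihood test was under 0.05. In this test 33 of the 44 collagen genes could be examined. The other 11 were COL2A1, COL3A1, COL6A5, COL9A1, COL19A1, COL20A1, COL21A1, COL22A1, COL23A1, COL26A1 and COL28A1. Of these, COL2A1 reached at most 16 counts in a sample, COL3A1, the fibrillar chain of skin and vessels, 15 counts, and COL28A1 8 counts. COL20A1, COL21A1 and COL26A1 reached at most 3 counts, COL19A1 and COL23A1 reached 1 count, and COL6A5, COL9A1 and COL22A1 had none in any sample. Zero counts allow up to 3 counts per library, which covers counting error only.

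The labelled cell type was checked against its markers. The epithelial markers were present in part. The keratins KRT8, KRT18 and KRT19 were detected in every condition, while the epithelial adhesion genes EPCAM and CDH1 averaged under 1 CPM in all conditions and the basal keratin KRT5 had no count at 15 and 30 weeks. KRT7 averaged 1315 CPM in the 24 h controls, 18.03 CPM in the 15-week controls and 1.93 CPM in the 30-week controls, and KRT17 averaged 152, 1.76 and 0.265 CPM. The summed level of 10 airway epithelium markers was 2125 to 2462 CPM in the 24 h controls, 856 to 899 CPM in the 15-week controls, 314 to 412 CPM in the 30-week controls and 881 to 1097 CPM in the cells exposed for 30 weeks. Of 10 fibroblast markers, DCN and LUM had no count in the samples of 24 h and 15 weeks, and the summed level at 30 weeks was 495 to 551 CPM in controls and 386 to 451 CPM in exposed cells. The summed level of 26 skeletal muscle markers was 429 to 546 CPM in the 30-week controls, against 34.8 to 47.4 CPM in the cells exposed for 30 weeks and 19.8 to 44.9 CPM in all other conditions. Of the 4 defining muscle genes, none was at 0 throughout the 30-week samples of either arm. MYOD1 and MYOG were higher in the 30-week controls than in exposed cells, while ACTA1 and CKM rested on few counts in both arms. MYOD1 averaged 85.3 CPM in the 30-week controls and 0.462 CPM in exposed cells, and MYOG 2.67 and 0.0263 CPM. ACTA1 averaged 0.0839 and 0.107 CPM, and CKM 0.0360 and 0.0534 CPM. MYOG had no count in the cells exposed for 24 h and in both arms at 15 weeks, and CKM had none in the 15-week controls. All collagen results at 30 weeks are comparisons with these controls, and the part of the marker differences in them was not tested. In samples of whole cultures, fewer cells of a type and less RNA per cell cannot be told apart. The 6 small noncoding RNAs with the most counts took 22.3% to 31.03% of the counts in the 30-week controls, 17.0% to 21.5% in the cells exposed for 30 weeks and at most 12.9% in the other samples. Exposed replicate 2 at 30 weeks correlated least with its group (0.976 to 0.981 in log2 CPM across genes).

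The 6 type IV genes lie in head-to-head pairs, each pair read in opposite directions from a short shared stretch of DNA. The chains of each pair had changes of the same sign at 30 weeks. They were higher for COL4A1 with COL4A2 and COL4A5 with COL4A6, and lower for COL4A4 with COL4A3, of which COL4A3 was not called. The stretches are printed as a description, and their part in these changes was not tested. Sequences are from the RefSeq promoter table on GRCh38.p14, in which 32 of the 44 collagen genes had an entry, and are printed 5′ to 3′ on the plus strand. Capitals mark each match to the letters CCAAT or their reverse complement. They also mark each match to GGGCGG or its reverse complement, and no match to one motif overlaps a match to the other.
COL4A1 to COL4A2, chr13:110307158-110307283: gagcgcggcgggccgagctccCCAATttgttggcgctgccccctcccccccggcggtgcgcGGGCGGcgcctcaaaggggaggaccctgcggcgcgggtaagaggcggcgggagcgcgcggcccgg
COL4A4 to COL4A3, chr2:227164489-227164623: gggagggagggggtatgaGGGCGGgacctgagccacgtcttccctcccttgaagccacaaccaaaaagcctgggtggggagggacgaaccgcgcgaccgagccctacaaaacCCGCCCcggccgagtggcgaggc
COL4A6 to COL4A5, chrX:108439588-108439837: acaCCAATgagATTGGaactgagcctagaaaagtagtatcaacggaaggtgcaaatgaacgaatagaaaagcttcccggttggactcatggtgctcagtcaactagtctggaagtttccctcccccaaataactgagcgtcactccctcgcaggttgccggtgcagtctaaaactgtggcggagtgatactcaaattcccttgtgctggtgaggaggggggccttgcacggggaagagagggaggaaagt
The first stretch is the whole 126 bases between the starts of COL4A1 and COL4A2, with a GC content of 80.2%. It holds 1 CCAAT match and 1 GGGCGG match, which are found in 21.1% and 34.6% of all 35116 promoters over the same length. The second is the whole 135 bases between COL4A4 and COL4A3, with a GC content of 68.1% and 2 matches to GGGCGG, a motif found in 35.5% of all promoters at that length. The third is the 250 bases before COL4A5, out of 379 bases between its start and that of COL4A6. It is less GC-rich at 51.2%, against a median of 58% over all promoters, and holds 2 CCAAT matches close together and no GGGCGG, which are found in 32% and 42.6% of promoters at this length. The letters TATAAA were absent from all 3 stretches and are found in 5.87%, 6.13% and 10.7% of promoters at these lengths. A match is a description of letters and not a binding site.

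Control cells at 24 h expressed a limited set of collagens at appreciable level. Per length, COL8A1, a short-chain network collagen, was highest at 24.1 ± 0.677 RPKM (SD, n = 2), followed by COL4A2 at 22.3 ± 0.251 and COL4A1 at 19.1 ± 1.17 RPKM. COL5A2 (12.9 ± 1.74) and COL5A1 (11.4 ± 3.80), chains of the fibril that nucleates type I fibres, came next and did not differ beyond their spread. COL12A1 (8.34 ± 0.879), a FACIT, and COL7A1 (7.34 ± 0.406), the anchoring fibril chain, did not separate beyond their spread either. COL1A1 stood at 2.32 ± 1.26 RPKM and COL1A2 at 1.81 ± 0.0808 RPKM. The order was the same in the 7 leading genes of the cells exposed for 24 h.

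**Figure D1:**
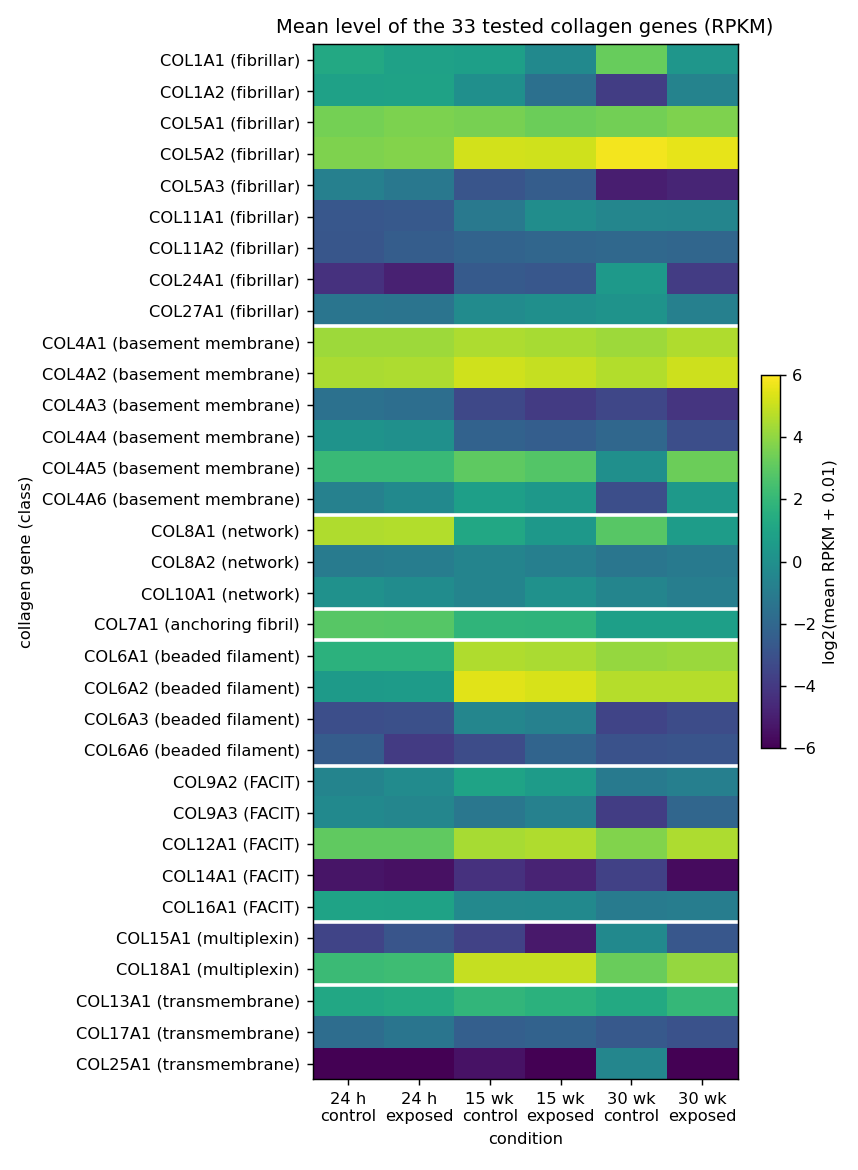
Mean level of the 33 tested collagen genes (rows, by class) in the 6 conditions (columns), in RPKM on a log2 colour scale after adding 0.01. COL8A1 led at 24 h, COL6A2 at 15 weeks (44.1 RPKM in controls) and COL5A2 at 30 weeks (55.2 RPKM in controls).

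By 15 weeks in culture the controls themselves had changed their collagens. In edgeR's quasi-likelihood test, 20 of 33 collagen genes were called between the 15-week and 24 h controls (14 higher, 6 lower), which is 60.6% of those tested against 24.9% of all genes. Chains of type VI were among those that rose. COL6A2 went from 4.89 ± 1.09 to 152 ± 6.96 CPM (SD, n = 2 each, log2 change 4.95 ± 0.22 SE, adjusted p = 5.04e-10), COL6A1 from 13.7 ± 1.23 to 100.2 ± 0.725 CPM (2.87 ± 0.23) and COL6A3 from 1.11 ± 0.534 to 7.37 ± 1.58 CPM (2.72 ± 0.41). These 3 chains are known to assemble into 1 molecule, and all 3 were called. COL18A1, whose end fragment is endostatin, rose from a mean of 24.6 to one of 167 CPM (log2 change 2.76). COL8A1 fell from 133 ± 3.73 to 12.5 ± 4.42 CPM (log2 change -3.41 ± 0.28 SE, adjusted p = 3.49e-07). COL4A4 and COL4A3, chains of specialised basement membranes such as that of the lung alveolus, fell by 2.44 and 2.01 on the log2 scale. Per length, COL6A2 (44.1 ± 2.02 RPKM) now led, followed by COL5A2 (36.7 ± 1.97) and COL4A2 (34.7 ± 1.92), and COL8A1 stood at 2.27 RPKM. The median change over the 33 collagens was 0.64, against -0.02 over all genes. Both times are in batch 1, but culture time and any difference in handling between them cannot be told apart.

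Exposure for 24 h left no collagen gene called. In edgeR's quasi-likelihood test, 0 of 33 collagens and 0% of all genes passed, and DESeq2 and limma-voom called 0 collagens as well. In edgeR's test 1 collagen had an unadjusted p under 0.05, and the share of all genes under it was not counted. The type IV chains, for example, stood at 119 and 130.3 CPM in controls and 115 and 131 CPM in exposed cells for COL4A1, and at 28.6 ± 2.12 and 28.6 ± 0.992 CPM for COL4A5. The median log2 change over the 33 collagens was 0.01.

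At 15 weeks, type I collagen and COL8A1 had lower values in exposed cells, but the call depended on which samples set the spread. With all 15 samples in the fit, 0 of 33 collagens and 0% of all genes were called by edgeR's quasi-likelihood test. In that test 6 collagens had an unadjusted p under 0.05, and the share of all genes under it was not counted. DESeq2 and limma-voom on all samples also called 0 collagens. With the 4 samples of 15 weeks fitted alone, 4 of the 30 collagens then tested were called, while 1.96% of the 15484 genes then tested were. COL1A1 was 11.2 and 8.76 CPM in the controls and 4.96 and 4.35 CPM in exposed cells, a log2 change of -1.11 ± 0.17 SE in the fit of 15 weeks alone (edgeR adjusted p = 0.00300). COL1A2 was 7.36 and 2.51 CPM in controls and 1.30 and 1.98 CPM in exposed cells, a log2 change of -1.59 ± 0.37 SE (edgeR adjusted p = 0.0320). COL8A1 was 9.41 and 15.7 CPM in controls and 6.70 and 7.95 CPM in exposed cells, with a log2 change of -0.79. In each of these genes the exposed samples lay under both controls. The genes were named because the same samples gave the calls, so this separation adds nothing to them. Its share over all genes at 15 weeks was not counted. COL11A1, a minor fibrillar chain best known from cartilage, was the gene of the 4 with the opposite sign, at 3.24 ± 0.696 CPM in controls and 6.58 ± 0.351 CPM in exposed cells (log2 change 1.02).

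Exposure for 30 weeks was the time at which collagens were called. In edgeR's quasi-likelihood test with Benjamini-Hochberg adjustment, 17 of the 33 tested collagens passed, 51.5% of those tested and 38.6% of all 44, against 23.7% of all genes tested. Of them 9 were higher and 8 lower in exposed cells, where 12% of all genes were higher and 11.7% lower. Of the 8 lower, COL25A1 passed the filter on low counts only through the 30-week controls. COL14A1 no longer passed it without control replicate 2 of 30 weeks. Both are counted above, and for both the filter favoured a call as lower, so their direction adds nothing to these counts. The median log2 change over the 33 collagens was 0.10 and the median of its size without sign 0.45, against 0.01 and 0.30 over all genes, so that collagens moved in both directions. By class, 5 of 6 basement membrane genes were called (4 higher, 1 lower), 4 of 9 fibrillar genes (1 higher, 3 lower), 3 of 5 FACIT genes (2 higher, 1 lower), both multiplexins (1 higher, 1 lower), 2 of 3 transmembrane genes (1 higher, 1 lower), 1 of 3 network genes (lower), and 0 of 4 beaded filament genes and the anchoring fibril gene. In 18 of 33 collagens, 16 of them called, no exposed sample lay within the range of the controls or the reverse, where this held for 27.3% of all genes tested. With exposed replicate 2 or control replicate 1 left out, and in the other fits that left out 1 library, 14 to 18 collagens were called.

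**Figure D2:**
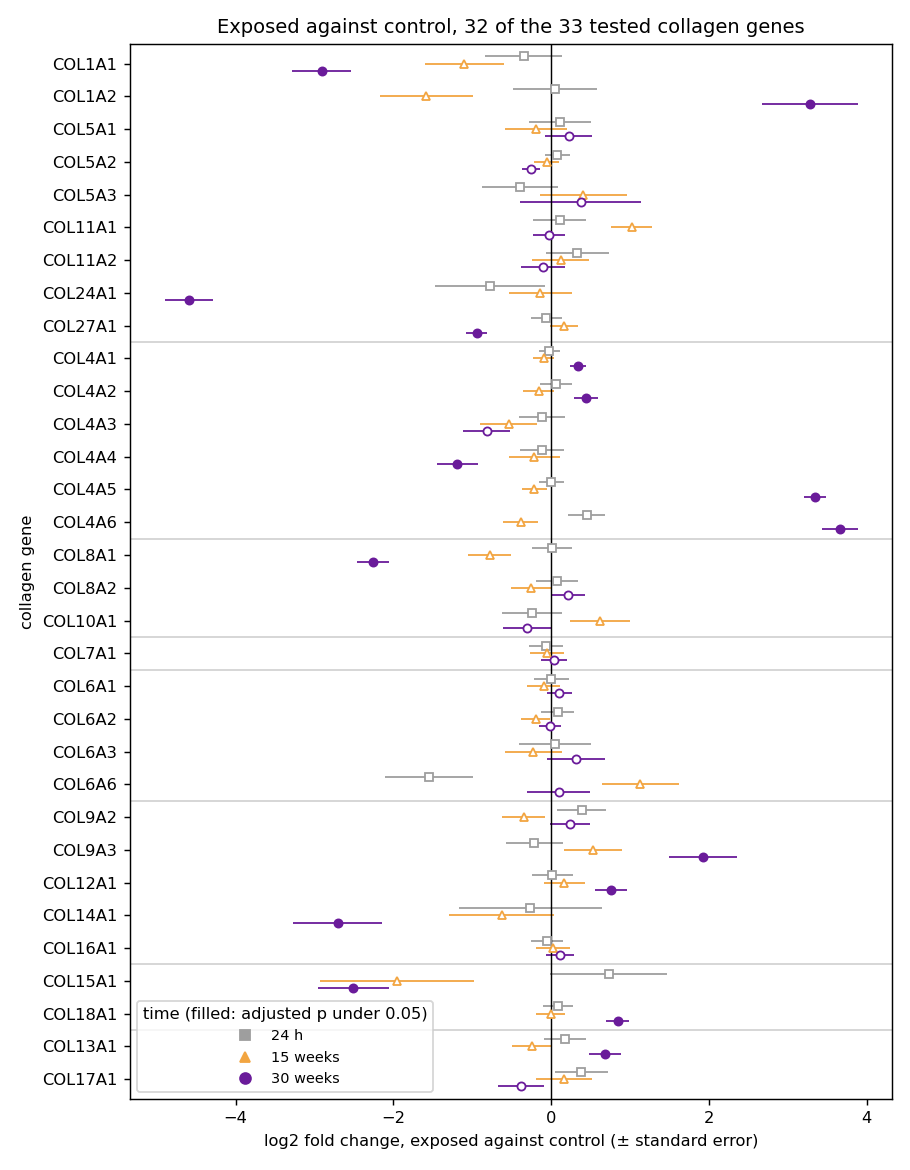
Log2 fold change of exposed against control cells with its standard error for 32 tested collagen genes at 24 h (squares), 15 weeks (triangles) and 30 weeks (circles), ordered by class, with filled symbols for an adjusted p under 0.05. No symbol is filled at 24 h and 15 weeks, and 16 are filled at 30 weeks; COL25A1, the 17th called gene, is at the count floor in exposed cells and is left out.

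Type I collagen is a trimer of COL1A1 and COL1A2 chains, and its genes moved in opposite directions at 30 weeks. COL1A1 (chr17:50184101-50201631, minus strand, GRCh38) was 89.0, 21.5 and 55.3 CPM in the controls and 7.10, 6.38, 5.88 and 10.1 CPM in exposed cells. The controls were spread over a wide range but all lay above every exposed sample, with a mean of 55.3 ± 33.8 CPM (SD, n = 3) against 7.36 ± 1.88 CPM (n = 4). The log2 change was -2.91 ± 0.37 SE (edgeR adjusted p = 3.02e-05), and -2.31 without control replicate 1 and exposed replicate 2 together. COL1A2 (chr7:94394895-94431227, plus strand) was 0, 0.650 and 0.286 CPM in the controls, from 0, 18 and 8 counts, and 4.02, 5.01, 1.74 and 2.04 CPM in exposed cells. Here the controls were the low group, again without overlap, and the log2 change was 3.28 ± 0.61 SE (edgeR adjusted p = 0.000956). With so few control counts its size varied, from 2.47 without control replicate 1 and exposed replicate 2 together to 4.33 without control replicate 2. At 24 h both genes were near 10 CPM, with COL1A1 at 13.7 ± 7.46 and COL1A2 at 9.16 ± 0.410 CPM in controls. From 15 to 30 weeks the controls gained COL1A1 (log2 change 2.47 ± 0.47 SE, edgeR adjusted p = 0.000454) and lost COL1A2 (-3.90 ± 0.64, edgeR adjusted p = 0.000136). In exposed cells the corresponding log2 changes were 0.66 ± 0.45 SE and 0.96 ± 0.54 SE, which did not pass the test. The change at 30 weeks minus that at 15 weeks was called for COL1A2 (log2 4.86 ± 0.86 SE, edgeR adjusted p = 0.00260), while that for COL1A1 was -1.81 ± 0.62 SE (edgeR adjusted p = 0.134).

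Among the other fibrillar genes, COL24A1 (chr1:85729233-86156984, minus strand), a chain with a restricted pattern in developing bone, was 10.3, 9.24 and 9.45 CPM in the 30-week controls and 0.254, 0.736, 0.348 and 0.246 CPM in exposed cells. The log2 change was -4.59 ± 0.31 SE (edgeR adjusted p = 2.78e-08), and every control was far above every exposed sample. In the earlier conditions COL24A1 averaged 0.161 to 1.06 CPM, and from 15 to 30 weeks it rose in controls (log2 change 3.18) and fell in exposed cells (-1.27 ± 0.39 SE, edgeR adjusted p = 0.0143). COL27A1, a related chain of cartilage, was 8.68 ± 1.24 CPM in controls and 4.51 ± 0.257 CPM in exposed cells (log2 change -0.94, edgeR adjusted p = 0.000112). The type V chains, which set the diameter of type I fibrils, held the bulk of the fibrillar counts and did not pass the test. COL5A2 was 377 ± 9.82 CPM in controls and 316 ± 36.6 CPM in exposed cells, a log2 change of -0.25 with a 95% interval of -0.49 to -0.02, and its groups did not overlap. It was called lower without exposed replicate 2, without that library and control replicate 1 together, and under limma-voom with 2 surrogate variables. COL5A1 was 91.6 ± 34.9 and 107 ± 40.3 CPM (log2 change 0.22, interval -0.36 to 0.81). COL5A3 averaged under 0.2 CPM in both groups, with a log2 change of 0.38 ± 0.77 SE.

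In the basement membrane, the chains COL4A5 and COL4A6 were far higher in exposed cells than in controls at 30 weeks. They assemble together, and their genes stand head to head on the X chromosome. COL4A5 (chrX:108439838-108697545, plus strand) was 4.99, 7.54 and 6.26 CPM in the 30-week controls and 65.3, 60.8, 65.8 and 63.9 CPM in exposed cells. COL4A6 (chrX:108155614-108439458, minus strand) was 0.430, 1.01 and 0.644 CPM in controls and 10.9, 8.62, 7.93 and 8.41 CPM in exposed cells. The exposed samples of each gene lay close together and the groups were far apart. The log2 change was 3.35 ± 0.14 SE for COL4A5 (10.2-fold, edgeR adjusted p = 2.59e-10) and 3.66 ± 0.23 SE for COL4A6 (12.7-fold, edgeR adjusted p = 1.19e-08). In the earlier conditions COL4A5 averaged 28.6 to 52.8 CPM and COL4A6 3.92 to 11.3 CPM, so that the COL4A5 level of the exposed samples of 30 weeks lay above every earlier sample. The controls had fallen from 15 to 30 weeks by 3.07 ± 0.15 SE for COL4A5 and by 4.00 ± 0.24 SE for COL4A6 on the log2 scale, while exposed cells changed by 0.49 ± 0.14 SE (edgeR adjusted p = 0.00911) and 0.05 ± 0.19 SE (edgeR adjusted p = 0.848). The median log2 change of all 533 tested genes of the X chromosome at 30 weeks was 0.04. For both genes the change at 30 weeks minus that at 15 weeks was called, at 3.56 ± 0.21 SE (edgeR adjusted p = 2.32e-07) and 4.05 ± 0.32 SE (edgeR adjusted p = 2.14e-06).

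The COL4A4 and COL4A3 pair on chromosome 2 went the other way. COL4A4 (chr2:226967360-227164488, minus strand) was 1.94, 2.24 and 3.01 CPM in the 30-week controls and 1.23, 1.19, 0.591 and 1.20 CPM in exposed cells. All 4 exposed samples lay under all controls, exposed replicate 3 far under the others, and the log2 change was -1.19 ± 0.26 SE (edgeR adjusted p = 0.00346). Its partner COL4A3 averaged 0.656 ± 0.148 CPM in controls and 0.371 ± 0.0881 CPM in exposed cells, with a log2 change of -0.82 ± 0.30 SE that did not pass (edgeR adjusted p = 0.0575). Both had been higher at 24 h, at 12.2 and 9.76 CPM for COL4A4 and 2.71 ± 0.128 CPM for COL4A3 in controls. COL4A1 and COL4A2, the chains of every basement membrane, were the most abundant of the 3 pairs and changed least among them. COL4A1 was 123 ± 5.30 CPM in controls and 155 ± 8.05 CPM in exposed cells (log2 change 0.34 ± 0.10 SE, edgeR adjusted p = 0.0255), and COL4A2 was 160 ± 36.4 and 217 ± 31.3 CPM (0.45 ± 0.15 SE, edgeR adjusted p = 0.0456). The COL4A1 call was lost without control replicate 2 (edgeR adjusted p = 0.0801) or without exposed replicate 3 (0.0678), and that of COL4A2 was lost without control replicate 1 (edgeR adjusted p = 0.109), control replicate 2 (0.194), or exposed replicate 1 (0.107), 3 (0.0712) or 4 (0.103). Over their alternatives the adjusted p ran from 0.000952 to 0.108 for COL4A1 and from 0.000963 to 0.194 for COL4A2. Exons of COL4A2 overlap 2 antisense genes, whose reads cannot be told apart here. The same limit holds for COL1A1, COL4A3, COL5A1, COL5A3, COL15A1 and COL16A1, whose exons overlap another gene on the other strand. COL4A1 and COL4A2 lie on chromosome 13, where the median log2 change of the 308 tested genes was 0.31, and the part of this shift in their change was not tested.

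**Figure D3:**
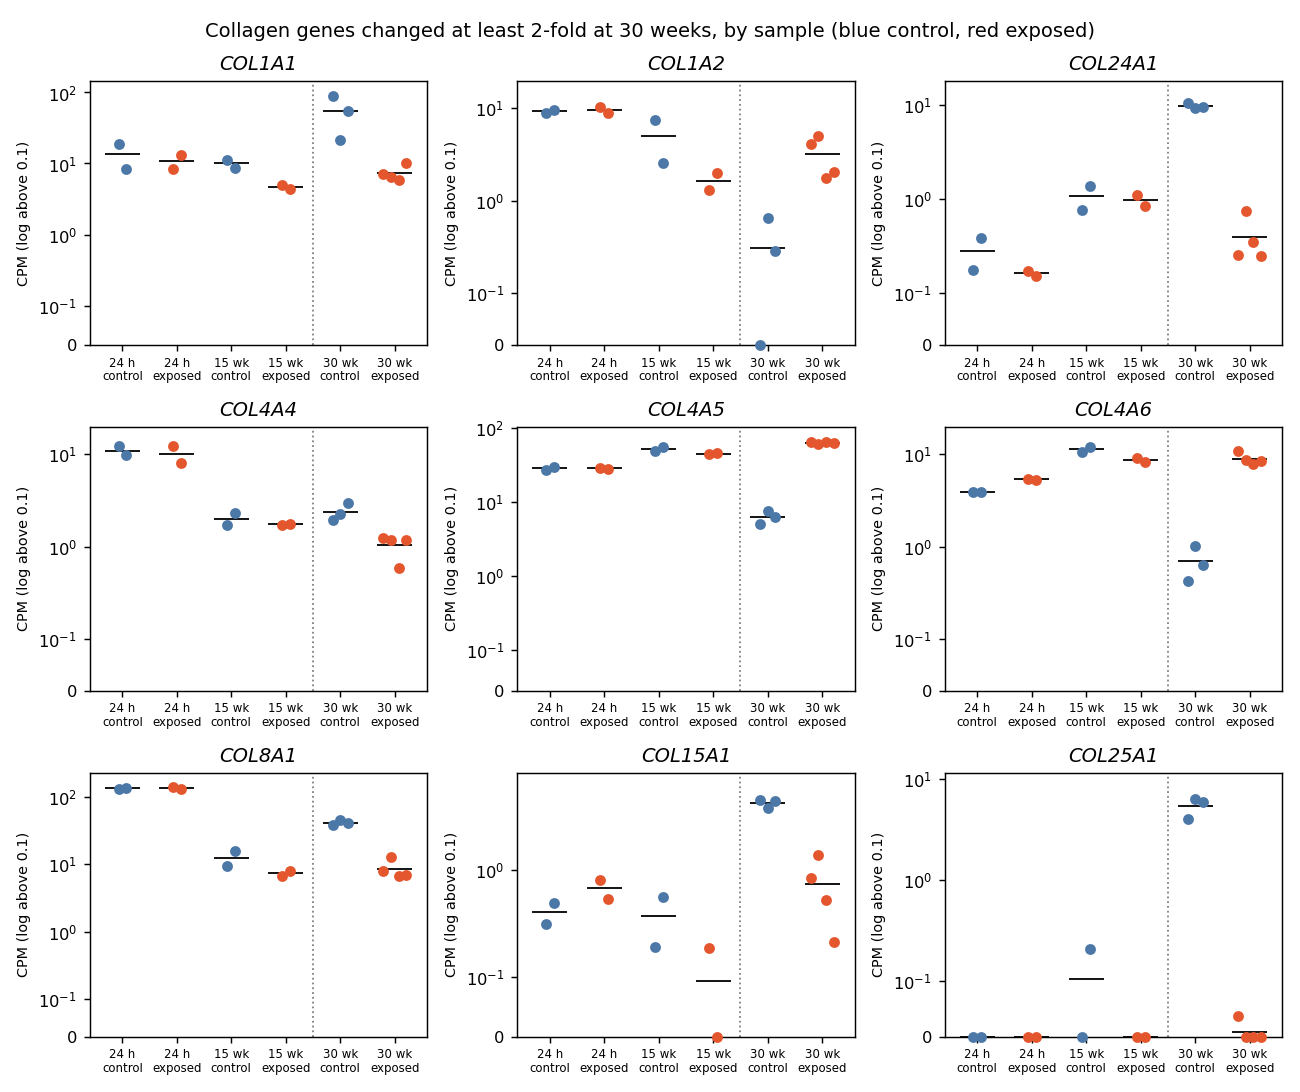
CPM in each of the 15 samples (blue control, red exposed) for the 9 collagen genes called at 30 weeks with a change of at least 2-fold and a mean of at least 1 CPM in the 30-week samples; black lines are means, the axis is linear below 0.1 CPM and logarithmic above, and a dotted line separates the batches. COL4A5 and COL4A6 are low in the 30-week controls alone, and COL24A1, COL15A1 and COL25A1 are high in the 30-week controls alone.

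Among network collagens, COL8A1 (chr3:99638594-99799217, plus strand), a chain of vessel walls and of the membrane under the corneal endothelium, was 37.5, 44.5 and 41.0 CPM in the 30-week controls and 8.004, 12.8, 6.61 and 6.87 CPM in exposed cells. The highest exposed sample was replicate 2, still under all controls, and the log2 change was -2.26 ± 0.21 SE (edgeR adjusted p = 7.28e-07). The controls had risen from 12.5 ± 4.42 CPM at 15 weeks (log2 change 1.71 ± 0.25 SE, edgeR adjusted p = 5.45e-05), whereas exposed cells stayed within 0.23 ± 0.24 SE of their level of 7.33 ± 0.884 CPM. The change at 30 weeks minus that at 15 weeks was called at -1.48 ± 0.34 SE (edgeR adjusted p = 0.0174), but not without control replicate 1 or exposed replicate 2 of 15 weeks. COL8A2 and COL10A1 averaged under 4 CPM throughout and were not called between the arms at any time. COL8A2 fell in controls from 15 to 30 weeks (log2 change -0.73 ± 0.24 SE, edgeR adjusted p = 0.0182) and COL10A1 in exposed cells (-0.91 ± 0.33 SE, edgeR adjusted p = 0.0315). COL7A1 was 15.5 ± 3.23 CPM in controls and 15.9 ± 2.97 CPM in exposed cells (log2 change 0.04, interval -0.30 to 0.37), after 67.7 ± 3.75 CPM in the 24 h controls.

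The beaded filament chains COL6A1, COL6A2 and COL6A3, which had risen in controls by 15 weeks, were not called between the arms at 30 weeks. COL6A1 was 72.2 ± 20.6 CPM in controls and 77.5 ± 8.90 CPM in exposed cells (log2 change 0.10, interval -0.21 to 0.42), and COL6A2 was 86.8 ± 18.7 and 86.2 ± 5.96 CPM (-0.01, interval -0.29 to 0.27). These intervals bound a change to less than 1 on the log2 scale, while that of COL6A3 reached from -0.41 to 1.03. COL6A3 fell in both arms from 15 to 30 weeks, by 3.17 ± 0.37 SE in controls and by 2.63 ± 0.33 SE in exposed cells on the log2 scale. COL6A1 and COL6A2 lie on chromosome 21, where the median log2 change of 179 tested genes at 30 weeks was 0.53, and the part of this shift in their values was not tested.

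Of the FACIT collagens, COL12A1, a large chain on type I fibrils, was 157 ± 50.6 CPM in controls and 266 ± 54.2 CPM in exposed cells (log2 change 0.76 ± 0.20 SE, edgeR adjusted p = 0.0127). Its call was lost without control replicate 1 (edgeR adjusted p = 0.0614; 0.000248 to 0.0694 over its alternatives). COL9A3, a cartilage chain, was 4 counts in each control and 11 to 23 counts in exposed cells, a log2 change of 1.93 (edgeR adjusted p = 0.00376). COL14A1, a regulator of fibril growth, was 9 to 24 counts in controls and 1 to 4 counts in exposed cells, a log2 change of -2.71 (edgeR adjusted p = 0.00244). Both rest on few counts, and exons of COL9A3 overlap TCFL5 on the other strand. COL16A1 changed by 0.12 and COL9A2 by 0.24 on the log2 scale, and neither was called.

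The multiplexins divided. COL15A1 (chr9:98943907-99070787, plus strand), a collagen of the basement membrane zone of muscle and vessels, was 4.47, 3.75 and 4.37 CPM in the 30-week controls and 0.833, 1.37, 0.521 and 0.211 CPM in exposed cells. The groups were separate, with a log2 change of -2.51 ± 0.45 SE (edgeR adjusted p = 0.000717). It rose from 15 to 30 weeks in controls (3.45 ± 0.62 SE) and in exposed cells (2.89 ± 0.83 SE, edgeR adjusted p = 0.00976), and 1 of the 15-week exposed samples had no count. COL18A1, its relative, was 59.6, 41.0 and 54.7 CPM in controls and 105, 74.7, 89.5 and 102 CPM in exposed cells, all above the controls (log2 change 0.84 ± 0.14 SE, edgeR adjusted p = 0.000481). The change at 30 weeks minus that at 15 weeks was 0.85 ± 0.23 SE (edgeR adjusted p = 0.0479). That call was kept in 2 of the 11 fits that left out 1 library, those without control replicate 1 or exposed replicate 2 of 30 weeks, and was lost in the other 9, with only the samples compared, with at least 10 counts in every sample and under upper-quartile scaling. COL18A1 is on chromosome 21 and shares exon sequence on the other strand with SLC19A1, and since the strand setting of the counting is not given in the sources used here, its counts may hold reads of that gene. The part of the chromosome 21 shift in its change was not tested.

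Among transmembrane collagens, COL25A1 (chr4:108808725-109302658, minus strand), known from nerve cells and developing muscle, was 4.04, 6.28 and 5.87 CPM in the 30-week controls. Exposed replicate 1 had 1 count and the other 3 exposed samples had none, so the level was at least 51.0-fold lower, taking 3 counts per library as the floor. In the 8 samples of 24 h and 15 weeks it was detected in 1 control of 15 weeks, at 0.206 CPM. The fitted log2 change of -8.68 depends on the prior count (edgeR adjusted p = 8.79e-07). COL25A1 lies on chromosome 4, where the median log2 change of the 561 tested genes at 30 weeks was -0.32. The part of this shift in its change was not tested. COL13A1, found at cell contacts and at the nerve-muscle junction, was 7.71 ± 0.755 CPM in controls and 12.3 ± 3.67 CPM in exposed cells (log2 change 0.68 ± 0.20 SE, edgeR adjusted p = 0.0223). That call was lost without control replicate 1 (edgeR adjusted p = 0.0562) or control replicate 3 (0.0733), over a range of 0.00317 to 0.0759 in its alternatives. COL17A1, the hemidesmosome collagen of basal epithelial cells, averaged 0.654 to 2.18 CPM in the 6 conditions and was not called at 30 weeks.

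Collagens were also compared between 15 and 30 weeks within each arm. From 15 to 30 weeks, 23 of 33 collagens were called in controls (7 higher, 16 lower), 69.7% of those tested against 50.3% of all genes. COL25A1 is among the 7 higher and passed the filter on low counts only through the 30-week controls. The filter favoured its call as higher, so it adds nothing to this count. In exposed cells 15 collagens were called (3 higher, 12 lower), 45.5% against 46% of all genes, so about as often as genes at large. These steps share no samples with each other but share the change of batch, and the number of samples per arm differed. Both arms lost COL6A3, COL9A2, COL9A3, COL7A1, COL16A1, COL5A3, COL6A2 and COL18A1 and gained COL5A2 and COL15A1. The difference between the exposed-against-control changes at 30 and 15 weeks was called in 7 collagens, 21.2% of those tested, where 4.74% of all genes were. These were COL1A2, COL4A5, COL4A6 and COL18A1, with a more positive change at 30 weeks, and COL24A1, COL27A1 and COL8A1, with a more negative one. Without control replicate 1 of 15 weeks, 4 of them were called, COL1A2, COL24A1, COL4A5 and COL4A6, which were called whichever library was left out. COL8A1 was also lost without exposed replicate 2 of 15 weeks, and COL18A1 was called in only 2 of the 11 fits that left out 1 library.

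**Figure D4:**
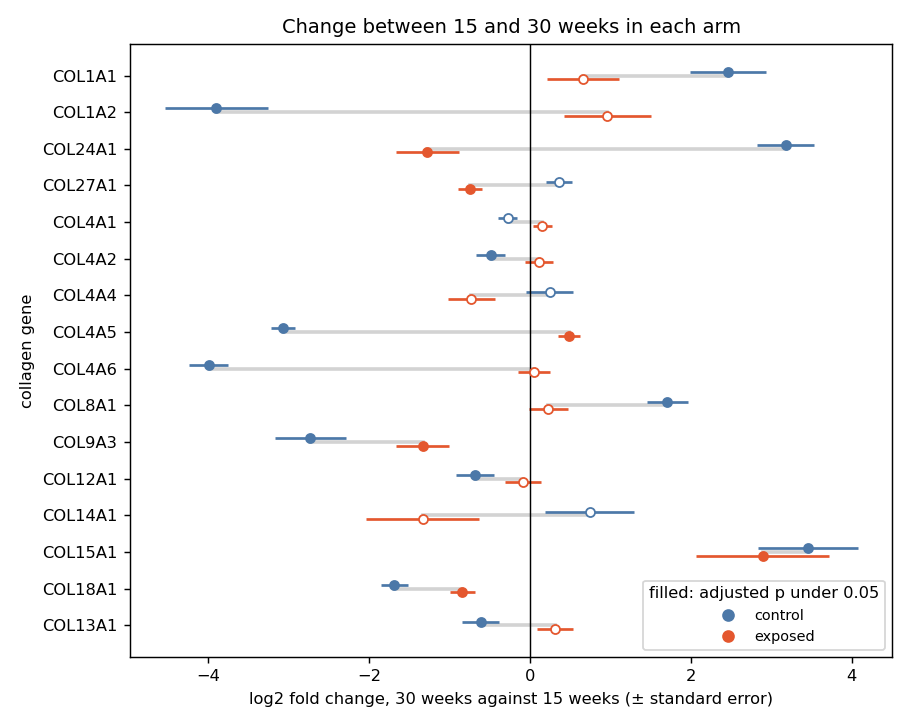
Log2 fold change from 15 to 30 weeks, with its standard error, in control cells (blue) and exposed cells (red) for 16 collagen genes called between the arms at 30 weeks, with filled points for an adjusted p under 0.05 in edgeR. COL4A5 and COL4A6 fell in controls (-3.07 and -4.00), against 0.49 and 0.05 in exposed cells; time and batch changed together.

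Summed over all 44 genes, collagens took 905 ± 29.4 CPM in the 24 h controls, 1570 ± 21.9 CPM in the 15-week controls and 1295 CPM in the 30-week controls. Exposed cells had 921 ± 19.7, 1497 ± 14.5 and 1464 ± 120 CPM. At 30 weeks the samples ran from 1145 to 1444 CPM in controls and from 1318 to 1592 CPM in exposed cells and overlapped, so the sum did not separate the arms. The makeup differed more than the sum. Fibrillar genes took 40.0% to 45.4% of the collagen counts in the 30-week controls and 28.5% to 32.7% in exposed cells. Basement membrane genes took 21.9% to 23.1% in controls and 29.5% to 31.8% in exposed cells. Network genes took 3.08% to 4.29% against 0.701% to 1.29%. FACIT genes took 8.21% to 15.1% against 15.8% to 20.5%, and multiplexins 3.91% to 4.94% against 5.77% to 6.74%. In these 5 classes the shares of the arms did not overlap; these are shares of a whole, so they do not move independently.

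**Figure D5:**
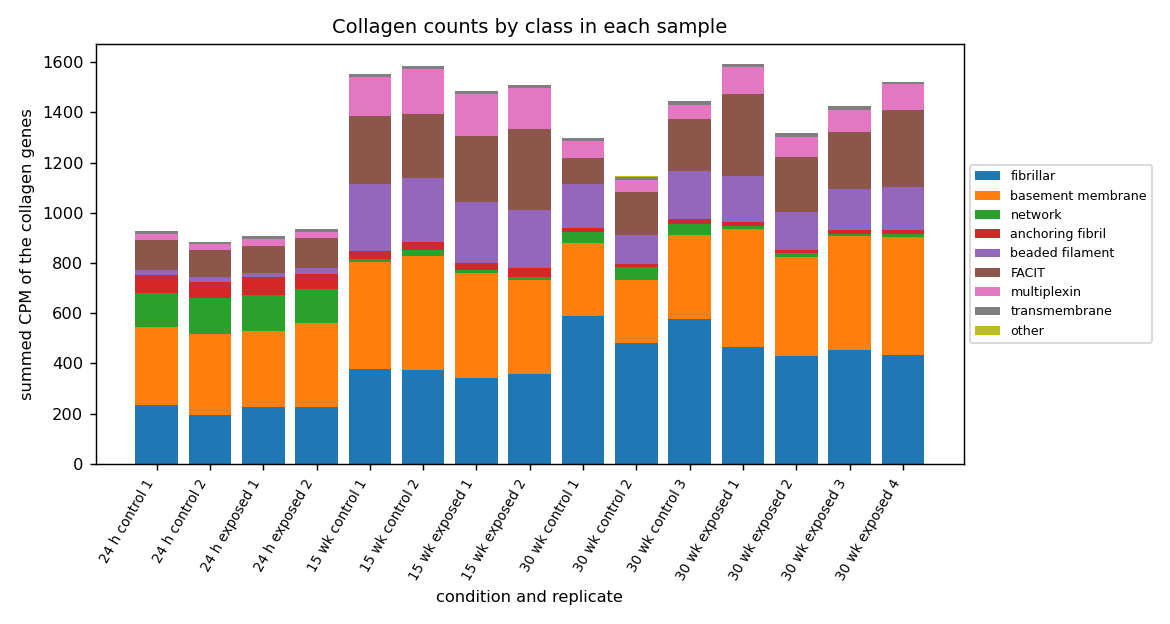
Summed CPM of the collagen genes in each of the 15 samples, stacked by class. The total was 884 to 935 CPM at 24 h and 1487 to 1585 CPM at 15 weeks; at 30 weeks the fibrillar part was 483 to 588 CPM in controls and 431 to 464 CPM in exposed cells.

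Collagen chains are modified, folded, secreted, trimmed and cross-linked by a set of other proteins. Of 36 such genes, all tested, 8 were called at 30 weeks (5 higher, 3 lower), 22.2% against 23.7% of all genes. P3H2, a prolyl 3-hydroxylase that acts on type IV collagen, was higher (log2 change 1.21 ± 0.17 SE, edgeR adjusted p = 7.88e-05), as were ADAMTS2, the protease that removes the amino propeptide of fibrillar procollagens (1.62, edgeR adjusted p = 0.00160), and LOXL4, a cross-linking oxidase (0.87, edgeR adjusted p = 0.00753). SERPINH1, the collagen chaperone HSP47, was lower (-0.67 ± 0.12 SE, edgeR adjusted p = 0.000654), as were ADAMTS14, another procollagen protease (-1.43, edgeR adjusted p = 0.00212), and LOXL1, an oxidase known for elastin (-0.41, edgeR adjusted p = 0.0299). FKBP14 and PCOLCE, a peptidyl-prolyl isomerase and an enhancer of procollagen cleavage, rose by 0.41 and 1.05 on the log2 scale. Without control replicate 1, or without control replicate 3, 5 of these genes were called.

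Of 10 collagen receptors, 8 were tested and 5 called at 30 weeks (2 higher, 3 lower), 62.5% against 23.7% of all genes. DDR2, a receptor kinase for fibrillar collagen, was higher (log2 change 1.91 ± 0.17 SE, edgeR adjusted p = 5.99e-07), and so was ITGA2, the alpha chain of an epithelial collagen integrin (1.38 ± 0.20 SE, edgeR adjusted p = 0.000111). DDR1, the discoidin domain receptor of epithelia, was lower (-0.52), as were MRC2, which takes up collagen fragments (-0.70), and ITGA10, a cartilage integrin chain (-1.31). Without control replicate 1 only ITGA2 and DDR2 were called, and without control replicate 3 these and DDR1.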

How the data were processed

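RNA-seq of total RNA (TruSeq Stranded Total RNA with ribosomal depletion) was counted per gene in 15 BEAS-2B samples, grouped by GEO's labels into 6 conditions. The authors filtered reads with Rfastp (reads under 20 bases discarded), aligned them to GRCh38 and took counts per Entrez gene with Rsubread's featureCounts, and the values used are these raw counts as deposited. The strand and multi-mapping settings are not given in the sources used here. The published methods continue with limma-voom and sva.

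The analysis used R 4.3.3 and edgeR 4.0.16 (filterByExpr on the 6 conditions, 16740 genes kept, TMM, glmQLFit and glmQLFTest on all 15 samples with 1 mean per condition; Benjamini-Hochberg over all genes, threshold 0.05). Alternatives used DESeq2 1.42.0, limma 3.58.1 and sva 3.50.0, other filters and scalings, fits of the compared samples only, a fold of at least 2, a replicate block and each replicate left out. Leaving out 2 libraries of 30 weeks together was added after seeing the data. CPM are counts over the filtered library size times the TMM factor, and RPKM divide by MANE Select transcript length (GENCODE v44). The procedure was tested on simulated data. Same-numbered samples did not deviate together (correlation of deviations -0.06 at 24 h, 0.03 at 15 weeks, -0.12 to 0.30 at 30 weeks), so numbers were not taken as pairs. Depth was 23143202 to 31459990 counts. Standard errors are the size of the log2 change divided by the square root of the quasi-likelihood F. Intervals are 95% by the normal distribution, which makes them narrower than the F test itself would.

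The members, the classes and the lists of assembly genes, receptors and markers were chosen with earlier results of these data known. By rule, collagens called at 30 weeks with a fold of at least 2 and a mean of at least 1 CPM there are given by sample, other called ones with their change and p, uncalled ones above a mean of 10 CPM and partner chains with their change, the 3 called assembly genes with the smallest p in each direction, and every called receptor; other genes named were chosen after their values were seen.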

Additional observations from a re-analysis of the deposited data

Results flagged for a closer look

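COL4A4 in the cells exposed for 30 weeks had 1 sample apart from its group: exposed replicate 3 at 0.591 CPM, while the other 3 samples lay between 1.19 and 1.23 CPM. Its gap to the nearest sample, divided by the range of the group, was 0.938. Checked in this group were 16 called collagens and the summed collagen level, 17 sets of values, and COL4A4 was the only one past Dixon's limit; chance passes about 1 in 20 such groups.

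The change of exposed against control cells differed between 30 and 15 weeks in 7 collagens by the interaction term of edgeR's quasi-likelihood test. The difference (log2, 30 weeks minus 15 weeks) was 4.86 in COL1A2, 4.05 in COL4A6 and 3.56 in COL4A5, with all exposed samples above all controls at 30 weeks. It was -4.46 in COL24A1, -1.48 in COL8A1 and -1.10 in COL27A1, with all exposed samples under all controls at 30 weeks. It was 0.85 in COL18A1, a call lost in 9 of the 11 fits that left out 1 library. The calls rest in part on these same 30-week samples, so the separation of the arms there adds nothing to them. At 30 weeks the arms did not overlap in 27.3% of all genes tested. The 2 times were in different batches, and batch and time cannot be told apart.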

How the results depend on the processing

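Of the 17 collagens called at 30 weeks, 11 were called in every alternative in which they were tested, and none changed direction in any. COL27A1 and COL18A1 were lost only under the fold limit of 2; with that limit left aside, the others lost were COL4A1 (not called in 5 of 17), COL4A2 (9), COL12A1 (3) and COL13A1 (3). Their number was 10 with at least 10 counts in every sample, where fewer genes were tested, and 11 with a fold of at least 2. With only the samples compared it was 4 at 15 weeks. The 7 collagens that differed between 30 and 15 weeks became 11 under limma-voom with 2 surrogate variables and 4 with at least 10 counts in every sample, and the 23 called between the 30- and 15-week controls became 14 with a fold of at least 2. Assembly genes (8) became 14 with surrogate variables, 5 with only the samples compared and 4 with a fold of at least 2. Receptors (5) became 2 with only the samples compared, 3 with a fold of at least 2, and 2 without exposed replicate 2 and control replicate 1 at 30 weeks together, an alternative chosen after seeing the data. Beyond the alternatives' own construction, the cause was not tested. The share of all genes called is given for the main fit and for 15 weeks alone (1.96%), and not for the other alternatives. These counts therefore cannot tell a shift in these lists from a shift in the calls of all genes. Leaving out each library in turn gave 0 calls at 24 h and 15 weeks, 14 to 18 at 30 weeks, 4 to 8 for the difference between times, 16 to 18 between the 15-week and 24 h controls, 16 to 21 between the 30- and 15-week controls, 5 to 11 assembly genes and 2 to 6 receptors. With the replicate number as a block, 14 collagens were called at 30 weeks, without COL4A1, COL4A2 and COL12A1. Summed collagen CPM depended on the scaling: without 6 small noncoding RNAs the means were 1096 and 1116 at 24 h, 1902 and 1812 at 15 weeks, and 1542 and 1745 at 30 weeks (control and exposed); with library size alone 1749 and 1671 at 15 weeks and 1106 in the 30-week controls; with upper-quartile scaling 889.5 in the 24 h exposed cells and 1593 in the 15-week controls. Changes of collagens under about 1 CPM rest on at most 33.9 counts per sample.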
